A study of Mus musculus with 7 samples.

Results

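The plasminogen activation system was examined through 8 genes in mouse ovarian stroma around ovulation. They encode the activators *Plau* and *Plat*, the receptors *Plaur* and *Plgrkt*, the zymogen *Plg* and the inhibitors *Serpine2*, *Serpinb2* and *Serpinf2*. The genes were listed by name for their known function, at a time when earlier results of these data were known. All 8 were among the 52230 genes whose transcripts were quantified, and 7 of them were among the 19233 genes with enough reads to be tested. The comparison asked whether their mRNA levels depended on the progesterone receptor (PGR), a nuclear receptor for progesterone that is required for ovulation.

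The KO group comprised 3 libraries (replicates 2 to 4) from females of the PRKO strain that were PGR -/- for the Pgrtm1Bwo allele, a null allele present in every tissue of the animal and not in the ovary alone. The WT group comprised 4 libraries (replicates 1 to 4) from PGR +/+ littermates. All females, WT and KO alike, received 5 IU of PMSG (equine chorionic gonadotropin, which drives follicle growth), then 5 IU of hCG (the ovulatory signal) after 44 h, and ovaries were taken 8 h after hCG. Their age is given as 21 to 27 days with the samples and as 21 to 25 days in the description of the series. Each library was a pool of tissue from 3 mice. The ovaries were punctured to release granulosa cells, so "stroma" here is the residual ovary with its fibroblast, theca, vascular and immune cells and whatever follicle cells remained.

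Plasminogen is an inactive enzyme precursor made mainly by the liver and carried in blood and tissue fluid. Urokinase (uPA, from *Plau*) and tissue-type activator (tPA, from *Plat*) cleave it to plasmin, a protease that degrades fibrin and matrix proteins and can activate other matrix proteases. Receptors hold uPA and plasminogen at the cell surface, and serpins trap either the activators or plasmin itself. In the ovary, gonadotropins are known to raise plasminogen activator activity before follicles rupture.

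The libraries held 47372446 to 63416875 estimated reads. *Pgr* had 19.5, 31.0, 21.5 and 16.8 CPM (reads relative to each library's TMM-normalised total, in the usual counts-per-million unit) for WT replicates 1 to 4, against 6.13, 6.52 and 7.56 CPM for KO replicates 2 to 4. All KO libraries were below all WT libraries, and reads remained in every KO library (log2 fold change, KO minus WT, -1.72, SE 0.202, edgeR adjusted p = 0.0544). The edgeR test at an adjusted p of at most 0.05 thus did not call *Pgr*, the targeted gene itself. DESeq2 gave it an adjusted p of 1.25e-14 at the same log2 fold change. The fibroblast markers *Col1a1* and *Dcn* were abundant, at 1462 to 2216 and 333 to 609 CPM in WT. Granulosa markers were also present, with *Inha* at 1436 to 2194 CPM and *Fshr* at 17.0 to 21.6 CPM in WT. The summed theca markers were 8874 to 9856 CPM in KO and 10150 to 13056 CPM in WT, without overlap. The largest part of that sum was *Cyp11a1*, at 5195 to 5633 CPM in KO and 5311 to 7278 CPM in WT. Taken singly, *Star* was without overlap, whereas *Cyp11a1*, *Hsd3b1*, *Cyp17a1* and *Insl3* overlapped. *Cyp17a1* was at 431 to 674 CPM in KO and 467 to 1203 CPM in WT. All 5 theca, 5 endothelial and 4 smooth muscle markers were fitted lower in KO, of which 1, 2 and 3 had an unadjusted p of at most 0.05. Such a p with a lower level in KO was found for 5.1% of all tested genes. None of these markers was called by edgeR, and by DESeq2 the smooth muscle gene *Cnn1* was (log2 fold change -0.69, adjusted p = 0.00214). All 6 surface epithelium markers were also fitted lower in KO, 1 at such a p and 0 called by edgeR, with a median log2 fold change of -0.49. The summed endothelial markers (628 to 672 CPM in KO, 662 to 765 CPM in WT), smooth muscle markers (1292 to 1729 and 1715 to 2296 CPM) and granulosa markers (2524 to 3138 and 1935 to 3240 CPM) overlapped. In whole tissue, fewer cells of a type and less RNA per cell cannot be told apart.

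The 8 genes covered a wide range of levels. On the TPM scale, which accounts for transcript length and so allows genes to be compared, *Plau* had the highest mean over the 7 libraries, 577 TPM, and ranked 225 among all genes. *Serpine2* followed at rank 315, then *Plat* at 1151, *Plgrkt* at 4007, *Plaur* at 6032, *Serpinb2* at 8762, *Serpinf2* at 15904 and *Plg* at 28128. *Plau* was above *Serpine2* in 7 of 7 libraries, although their ranges over all libraries overlapped. *Plaur* was above *Serpinb2* in 6 of 7 libraries, with overlapping ranges. Each other neighbouring pair was apart in range.

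**Figure D1:**
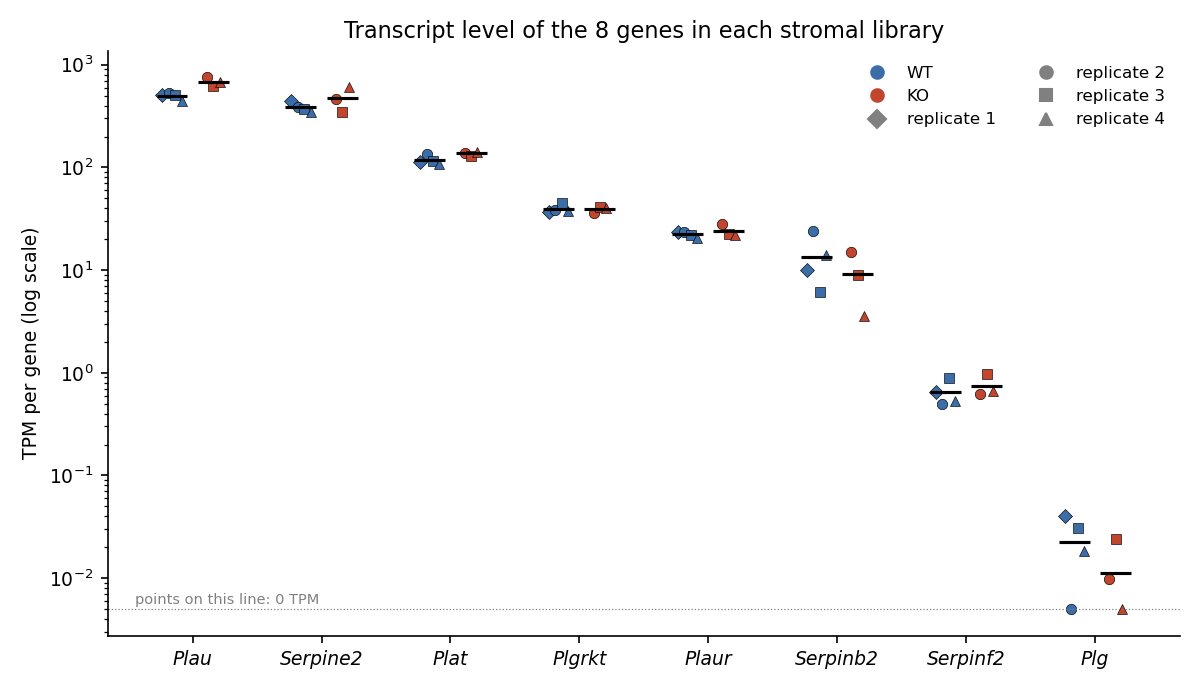
Transcript level of the 8 genes in each library, in TPM on a log axis, with WT in blue, KO in red, symbols for replicate numbers and a black line at each group mean; points on the dotted line are at 0 TPM. *Plau* and *Serpine2* lie at 345 TPM or above in every library, whereas *Plg* lies at 0.0406 TPM or below.

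None of the 7 tested genes was called different between KO and WT (0 of 7 by edgeR's quasi-likelihood test, where a call required adjusted p ≤ 0.05 together with a log2 change of 0.5 or more either way). Over all tested genes, 2 passed both thresholds, or 0.0104%. By DESeq2 the 7 genes also gave 0 calls, while 144 genes in all were called, or 0.749%. At an unadjusted p of at most 0.05, 1 of the 7 genes passed, *Plau*, beside 8.94% of all tested genes (3.84% higher and 5.1% lower in KO). The fitted log2 fold change was above 0 for 5 genes and below 0 for 2, with a median of 0.17 (median of all tested genes, -0.001).

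*Plau* encodes the activator that acts largely at cell surfaces. The gene (ENSMUSG00000021822) lies on the plus strand of chromosome 14 at 20886722 to 20893453 (GRCm39). Its level was 808, 751, 735 and 645 CPM across WT replicates 1 to 4, against 1115, 893 and 915 CPM across KO replicates 2 to 4. Every KO library was above every WT library, as was the case for 3.93% of all tested genes, and among the 7 tested members for *Plau* alone. Groups without overlap in either direction made up 9.05% of all tested genes. Mean levels were 735 ± 67.7 CPM for WT (SD, n = 4) against 974 ± 122 CPM for KO (SD, n = 3), a ratio of 1.33. The log2 fold change was 0.41 (SE 0.104, 95% interval 0.17 to 0.64), and edgeR returned an unadjusted p of 0.00367 that became 0.314 once adjusted. Thus the difference exceeded the spread between libraries for the gene taken singly and did not pass the adjustment over all genes. DESeq2 gave the same log2 fold change, 0.41, with an adjusted p of 0.0179, below the p threshold but short of the fold threshold. Over all alternatives the adjusted p ran from 1.18e-05 to 0.786, the former in a DESeq2 fit with the replicate number as a block that was added after the data were seen.

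KO replicate 2 was the highest library for *Plau*. Without it the log2 fold change was 0.30 (edgeR adjusted p = 0.786, unadjusted p of 0.0177), and the remaining KO libraries were still above every WT library. The same library had the highest summed level of the 8 acute inflammation genes (*Il6*, *Il1b*, *Cxcl1*, *Cxcl2*, *Ccl2*, *Ccl3*, *Ptgs2* and *Tnf*), 205 CPM, beside 141 and 87.0 CPM in KO replicates 3 and 4 and 108 to 140 CPM in WT. Of these 8 genes, 6 were higher and 2 lower in KO, with a median log2 fold change of 0.82. An unadjusted p of at most 0.05 was found for 3 of the higher genes and 0 of the lower. None was called by edgeR, and 3.84% of all tested genes were higher at such a p. Summed leukocyte markers were 48.3 to 62.5 CPM in KO and 50.9 to 59.5 CPM in WT, and the 5 neutrophil markers summed to 1.87 to 3.14 CPM in KO and 2.27 to 3.02 CPM in WT. Among the latter *Ly6g* was at 0.0192 CPM or below in every library, whereas *Csf3r* was detected in all, at 1.08 to 1.81 CPM. The part of inflammation, theca, granulosa, oocyte, smooth muscle, endothelial, surface epithelium, leukocyte and neutrophil markers in the *Plau* values was not tested.

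*Plat* encodes the activator that is best known for dissolving fibrin clots, and its mRNA is also stored in mouse oocytes. The gene (ENSMUSG00000031538) lies on the plus strand of chromosome 8 at 23247709 to 23272871 (GRCm39). The 4 WT libraries, in order of replicate, had 194, 210, 181 and 171 CPM, and the 3 KO libraries had 224, 206 and 207 CPM. The groups overlapped through WT replicate 2 alone, which was above KO replicates 3 and 4. The means were 189 ± 17.0 CPM (SD, n = 4) and 212 ± 10.4 CPM (SD, n = 3), a ratio of 1.12. The log2 fold change was 0.17 (SE 0.078, 95% interval -0.01 to 0.34, edgeR adjusted p = 0.573, unadjusted p of 0.064). All 8 oocyte markers had a fitted level above WT in KO, with a median log2 fold change of 0.29. Of these, 4 had an unadjusted p of at most 0.05 and 0 were called, whereas 3.84% of all tested genes were higher at such a p. Their summed level was 389, 390, 501 and 426 CPM for WT and 509, 651 and 446 CPM for KO, in order of replicate. The groups overlapped, and KO replicate 3 was the highest library for these markers. *Nlrp5*, an oocyte-specific gene, had a log2 fold change of 0.42 (edgeR adjusted p = 0.381, unadjusted p of 0.0107). The part of oocyte RNA in the *Plat* values was not tested.

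**Figure D2:**
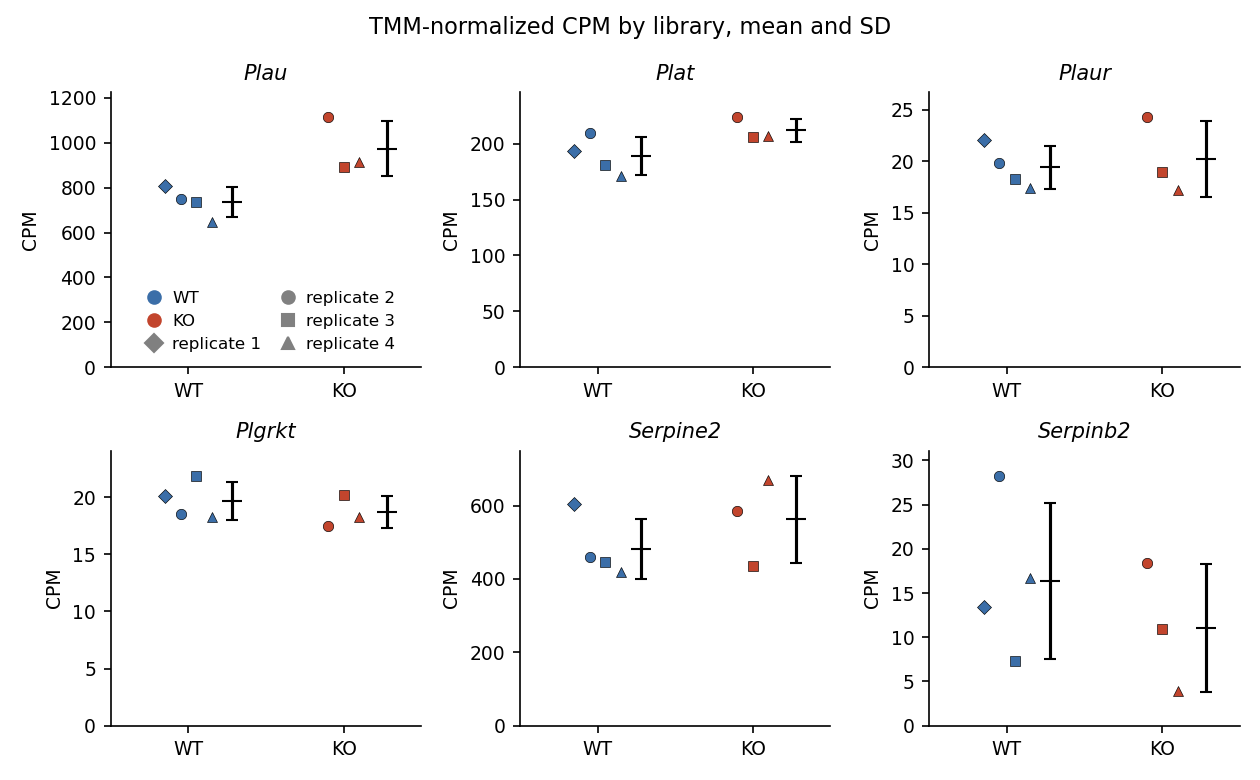
TMM-normalised CPM (vertical axes, from 0) of 6 genes in the WT (blue) and KO (red) libraries, with a symbol for each replicate number and bars at the mean and SD. For *Plau*, the KO libraries at 893 to 1115 CPM are all above the WT libraries at 645 to 808 CPM, and for the other 5 genes the groups overlap.

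The balance between the activators was compared within each library as the ratio of their TPM. *Plau* exceeded *Plat* by 4.52, 3.88, 4.41 and 4.09 times in WT replicates 1 to 4 and by 5.41, 4.72 and 4.80 times in KO replicates 2 to 4. All KO ratios were above all WT ratios. On the log2 scale WT averaged 2.08 ± 0.10 (SD, n = 4) and KO averaged 2.31 ± 0.11 (SD, n = 3), a difference of 0.24. A two-sided exact permutation test gave p = 0.0286, the smallest that the 35 splits of 7 libraries allow, and 0.0572 after Benjamini-Hochberg adjustment over the 2 ratios tested. The ratio therefore missed the threshold once adjusted.

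*Plaur* encodes the uPA receptor, which holds the enzyme at the cell surface. The gene (ENSMUSG00000046223) lies on the plus strand of chromosome 7 at 24161875 to 24175394 (GRCm39). In order of replicate, *Plaur* was measured at 22.1, 19.8, 18.3 and 17.4 CPM for WT and at 24.3, 19.0 and 17.2 CPM for KO. The KO group held both the highest and the lowest library. The log2 fold change was 0.06 (SE 0.127, 95% interval -0.23 to 0.35, edgeR adjusted p = 0.928), and it was -0.10 without KO replicate 2, so its direction rested on that library.

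*Plgrkt* encodes a membrane protein that binds plasminogen. The gene (ENSMUSG00000016495) lies on the minus strand of chromosome 19 at 29325999 to 29344824 (GRCm39). Values of 20.1, 18.5, 21.9 and 18.3 CPM were obtained for WT replicates 1 to 4, and of 17.5, 20.2 and 18.3 CPM for KO replicates 2 to 4. The groups overlapped, and the log2 fold change was -0.08 (SE 0.085, 95% interval -0.27 to 0.11, edgeR adjusted p = 0.834), with values of -0.13 to -0.02 when single libraries were left out. On the TPM scale *Plgrkt* averaged 39.7 ± 3.72 for WT (SD, n = 4) and 39.1 ± 3.05 for KO (SD, n = 3), above *Plaur* at 22.3 ± 1.41 and 24.0 ± 3.41 TPM.

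*Plg*, the zymogen itself, was close to absent as mRNA. The gene (ENSMUSG00000059481) lies on the plus strand of chromosome 17 at 12597491 to 12638272 (GRCm39). The 4 WT libraries held 4, 0, 3 and 1 reads in order of replicate, and the 3 KO libraries held 1, 2 and 0 reads. A count of 0 allows up to 3 reads, which in these libraries is 0.0482 to 0.0625 CPM, a limit that covers counting error only. All libraries but WT replicate 1 were at or below that limit, and no fold change is given. Of the 4 liver markers, *Alb* and *Ttr* were at 0.0177 CPM or below in every library, whereas *Apoa1* and *Serpina1a* were detected in every library, at 4.21 to 6.62 and 1.45 to 2.92 CPM.

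The inhibitors were led by *Serpine2* (protease nexin-1), a serpin that traps thrombin, uPA and tPA. *Serpinb2* encodes plasminogen activator inhibitor type 2, much of which stays inside the cell, and *Serpinf2* encodes alpha-2-antiplasmin, the main inhibitor of plasmin in blood. The 250 bases before the transcription start are shown for *Serpine2* and *Serpinb2* because these inhibitors had the highest level and the largest spread between libraries, respectively. The sequences are from RefSeq on GRCm38.p6, chr1:79858666-79858915 on the minus strand and chr1:107511173-107511422 on the plus strand, written 5′ to 3′. Capitals mark matches on either strand to the TATA box TATAAA, the GC box GGGCGG, the AP-1 element TGANTCA or AGAACA, a hexamer bound by the progesterone receptor. Neighbouring GC boxes may share bases.
Serpine2: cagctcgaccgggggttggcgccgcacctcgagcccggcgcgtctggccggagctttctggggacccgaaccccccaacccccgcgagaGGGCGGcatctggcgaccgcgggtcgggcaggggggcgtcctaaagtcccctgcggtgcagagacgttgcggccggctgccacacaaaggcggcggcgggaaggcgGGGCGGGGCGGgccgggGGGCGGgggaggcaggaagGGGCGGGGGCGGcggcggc
Serpinb2: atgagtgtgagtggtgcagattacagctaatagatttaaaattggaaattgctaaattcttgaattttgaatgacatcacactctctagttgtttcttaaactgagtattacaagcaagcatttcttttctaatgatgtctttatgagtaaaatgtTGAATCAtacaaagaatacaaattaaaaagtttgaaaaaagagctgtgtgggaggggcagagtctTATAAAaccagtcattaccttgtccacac

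The 2 sequences were unlike in composition. That of *Serpine2* was 78.8% G and C with 34 CG pairs and 6 GC boxes, and that of *Serpinb2* was 32.4% G and C with no CG pair, 1 TATA box 29 bases before the start and 1 AP-1 element 94 bases before it. The median over all 32851 promoters was 52.4% G and C with 6 CG pairs. Among these promoters 32.7% held a GC box, 12.4% a TATA box, 6.75% an AP-1 element and 16.1% the hexamer, which neither of the 2 sequences held. Entries were found for 5 of the 8 genes, and those without one were *Plau*, *Plat* and *Plg*. Among the entries not printed, that of *Plgrkt* held 1 hexamer, 122 bases before the start, and those of *Plaur* and *Serpinf2* held none. *Serpinb2* had 2 starts, of which the one farthest upstream was used. These matches describe letters only and show no binding.

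*Serpine2* (ENSMUSG00000026249) lies on the minus strand of chromosome 1 at 79763323 to 79839144 (GRCm39). Its level was 603, 459, 445 and 419 CPM across WT replicates 1 to 4, against 584, 435 and 670 CPM across KO replicates 2 to 4. WT replicate 1 and KO replicates 2 and 4 stood high and the other 4 libraries low, so the groups overlapped. The means were 482 ± 82.7 CPM (SD, n = 4) and 563 ± 119 CPM (SD, n = 3), a ratio of 1.17. The log2 fold change was 0.23 (SE 0.164, 95% interval -0.15 to 0.60, edgeR adjusted p = 0.738), and it was 0.08 without KO replicate 4, 0.39 without KO replicate 3 and 0.36 without WT replicate 1. The interval includes both a small decrease and a rise above the fold threshold. The summed granulosa markers were 3240, 2163, 2862 and 1935 CPM for WT and 2524, 2640 and 3138 CPM for KO, in order of replicate. WT replicate 1 and KO replicate 4 were the highest of their groups for both these markers and *Serpine2*, and WT replicate 4 was the lowest of WT for both. In contrast, WT replicate 3 was above WT replicate 2, and KO replicate 3 above KO replicate 2, for the markers and below it for *Serpine2*. The part of granulosa RNA in the *Serpine2* values was not tested.

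Set against the activators, *Serpine2* mRNA was 0.715, 0.58, 0.588 and 0.619 of the summed *Plau* and *Plat* TPM in WT replicates 1 to 4. In KO replicates 2 to 4 it was 0.515, 0.47 and 0.746 of that sum. The KO group held both the lowest and the highest ratio. The log2 ratio averaged -0.68 ± 0.14 for WT (SD, n = 4) and -0.82 ± 0.35 for KO (SD, n = 3), a difference of -0.14 (two-sided exact permutation p = 0.514, also 0.514 adjusted over the 2 ratios). It was -0.34 without KO replicate 4 (exact permutation p = 0.0667, the smallest possible) and -0.01 without KO replicate 3. The difference was smaller than the spread between KO libraries.

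**Figure D3:**
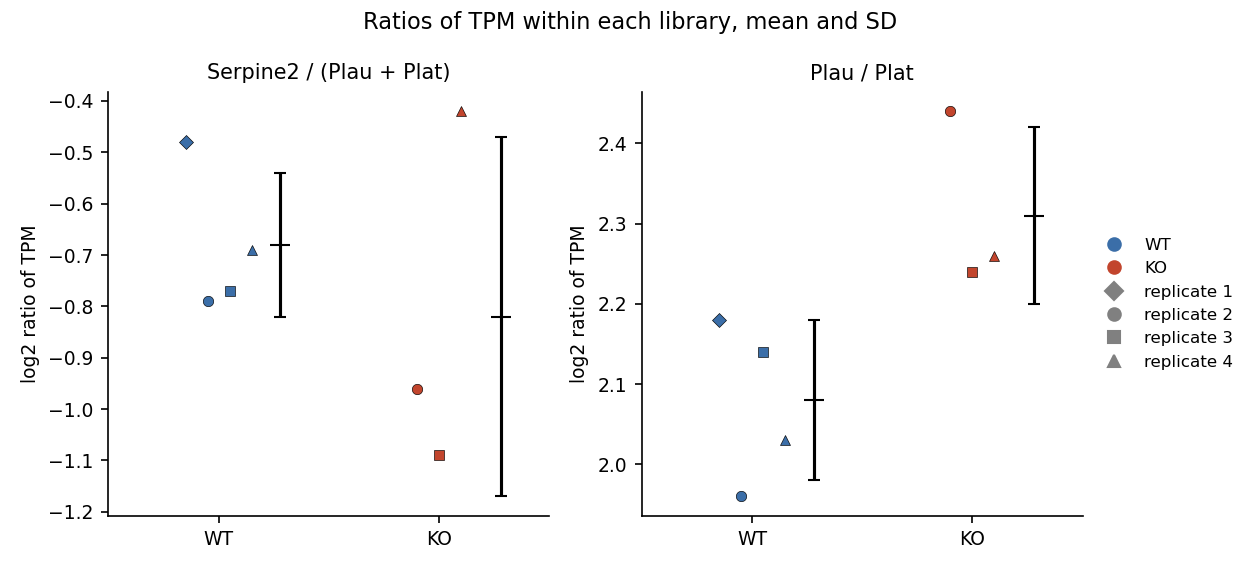
Log2 ratios of TPM within each library for *Serpine2* over the sum of *Plau* and *Plat* (left) and for *Plau* over *Plat* (right), with WT in blue, KO in red and bars at the mean and SD. The left groups overlap, and on the right the KO libraries lie at 2.24 to 2.44, above the WT libraries at 1.96 to 2.18.

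*Serpinb2* (ENSMUSG00000062345) lies on the plus strand of chromosome 1 at 107428593 to 107463208 (GRCm39). The WT libraries spanned 13.4, 28.3, 7.27 and 16.7 CPM (replicates 1 to 4) and the KO libraries 18.4, 10.9 and 3.97 CPM (replicates 2 to 4). The libraries of a single genotype differed widely, and the groups overlapped. The coefficient of variation of its CPM was 53.8% in WT and 65.3% in KO, whereas counting error alone was 6.59% in the library with fewest reads. The log2 fold change was -0.56 (SE 0.527, 95% interval -1.76 to 0.63, edgeR adjusted p = 0.805). Single libraries moved it to -1.15 (without KO replicate 2), -0.16 (without KO replicate 4) and -0.17 (without WT replicate 2). For *Plau*, by comparison, the coefficients of variation were 9.21% and 12.5%. A difference of the size fitted for *Serpinb2* was thus not detectable with this spread.

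*Serpinf2* (ENSMUSG00000038224) lies on the minus strand of chromosome 11 at 75322543 to 75330987 (GRCm39). It was at 0.656 to 0.961 CPM in WT and 0.742 to 1.31 CPM in KO, from 33 to 63 reads per library. The groups overlapped, with a log2 fold change of 0.25 (SE 0.248, 95% interval -0.32 to 0.81, edgeR adjusted p = 0.822). Its direction rested on KO replicate 3, without which the log2 fold change was -0.02.

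The genes differed in how many of their annotated transcripts carried the signal. *Plat-201* made up 99.4% ± 0.188 of *Plat* TPM for WT (SD, n = 4) and 99.1% ± 0.117 for KO (SD, n = 3). *Plaur-201* made up 87.1% ± 2.52 and 86.8% ± 1.80, and *Serpine2-201* 86.2% ± 1.20 and 85.9% ± 3.68. *Plgrkt-208*, 1 of 10 transcripts of its gene, made up 68.1, 64.7, 67.1 and 66.4% in WT replicates 1 to 4 and 62.7, 62.5 and 64.1% in KO replicates 2 to 4. All KO shares of *Plgrkt-208* were below all WT shares, by 3.46 percentage points on average. The two-sided exact permutation p was 0.0571, and 0.285 adjusted over the 5 shares compared, which were chosen after the values were seen. Shares of overlapping transcripts are estimates that Salmon divides from common reads.

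The genes whose log2 CPM ran most nearly in parallel with each member over the 7 libraries were also identified. For *Plau* these were *Slc6a9* (Pearson r 0.980) and *Rgmb* (0.978), and for *Plat* they were *Smarcc2* (0.985) and *Mast3* (0.978). *Serpine2* ran closest to *Tmco3* (0.973) and *Peli2* (0.961), and *Serpinb2* to *Bdnf* (0.982) and *Vstm2a* (0.969). The genes named are the 2 highest of 14886 values over 7 points that share the same libraries, and serve as a description only.

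The wider pathway was taken from a list of 31 further genes of inhibitors, plasminogen-binding proteins, receptors and clearance partners, other activating proteases and substrates. All 31 had reads in at least 1 library, and 27 were tested. In KO 14 of these were higher and 11 lower, *Anxa2* and *St14* being at 0.00 when rounded to 2 decimals, with a median log2 fold change of 0.05 (all tested genes, -0.001). Only *Sorl1* was called, beside 0.0104% of all tested genes. An unadjusted p of at most 0.05 was found for 4 of the 27, 2 higher and 2 lower, beside 8.94% of all tested genes. *Sorl1*, a sorting receptor that binds uPA complexes, rose in KO, from a WT mean of 23.2 ± 2.84 (SD, n = 4) to 48.2 ± 1.22 (SD, n = 3) CPM, with a log2 fold change of 1.06 (SE 0.091, edgeR adjusted p = 0.0114). It was already known as a called gene when the list was drawn up, and its adjusted p reached 0.0887 when single libraries were left out. *Sorl1* lies on chromosome 9 at 41876012 to 42035656, as does *Pgr*, the targeted gene, at 8899830 to 8968612 (GRCm39). Whether this shared chromosome bears on the *Sorl1* values was not tested.

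The most abundant of these genes were at levels near those of *Plau* and *Serpine2*. *Anxa2* and *S100a10*, whose products together form a surface receptor for plasminogen and tPA, stood at 582 ± 64.3 and 450 ± 49.6 TPM in WT (SD, n = 4) and at 599 ± 39.4 and 407 ± 35.1 TPM in KO (SD, n = 3). The integrin subunit *Itgb1* stood at 390 and 377 TPM, the plasmin substrate fibronectin (*Fn1*) at 316 and 343 TPM, and *Lrp1*, the endocytic receptor that clears activator and serpin complexes, at 286 and 326 TPM. None of these 5 passed the test, with log2 fold changes between -0.18 and 0.14.

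Of the genes with an unadjusted p of at most 0.05, *Eno1*, a glycolytic enzyme that also binds plasminogen at the cell surface, gave 177, 198, 179 and 193 CPM for WT and 340, 185 and 221 CPM for KO, in order of replicate. KO replicate 2 stood apart, as for *Plau* (log2 fold change 0.41, SE 0.176, edgeR adjusted p = 0.543, unadjusted p of 0.0453), and the log2 fold change ranged from 0.12 to 0.59 when single libraries were left out. Reads that *Eno1* may share with near-identical copies were not examined. *Hgfac*, a protease that activates hepatocyte growth factor, gave 0.653, 1.15, 0.851 and 0.948 CPM in WT and 0.521, 0.50 and 0.38 CPM in KO. Its KO libraries were all below WT, as were those of 5.12% of all tested genes, with a log2 fold change of -0.95 (SE 0.243, edgeR adjusted p = 0.314, unadjusted p of 0.00376). The endocytic receptor *Lrp2* was at 1.26 to 2.09 CPM in WT and 0.816 to 1.36 CPM in KO, with overlap (log2 fold change -0.77, SE 0.249, edgeR adjusted p = 0.395, unadjusted p of 0.0127).

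**Figure D4:**
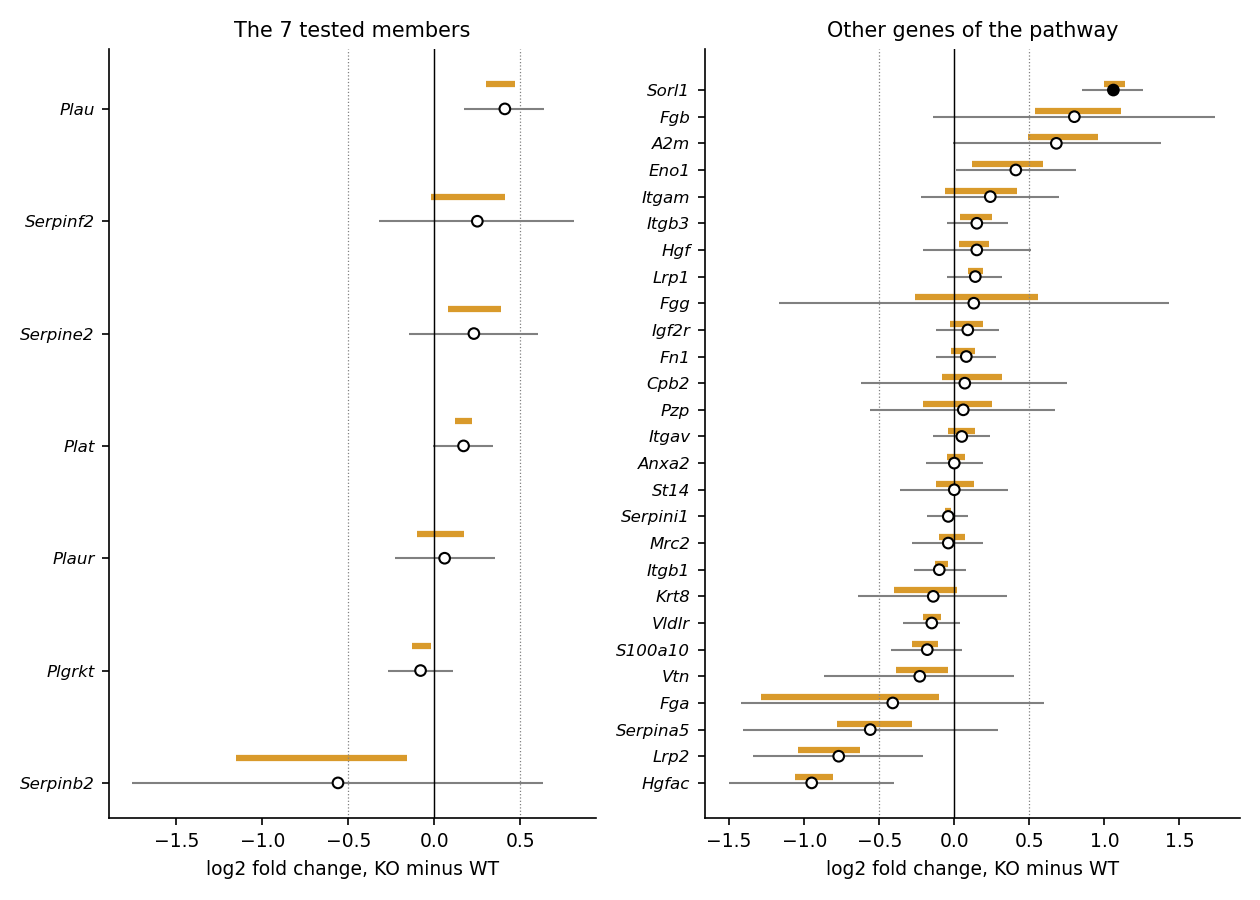
Log2 fold change (KO minus WT) of the 7 tested members (left) and the 27 tested genes of the wider pathway (right). Grey lines are 95% intervals, orange bars the range when each library was left out in turn, dotted lines the fold threshold of 0.5, and a filled circle a called gene, which only *Sorl1* is; among the members the interval of *Plau* alone excludes 0.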

How the data were processed

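Poly(A) RNA from 4 WT and 3 KO pools was sequenced by the authors with a stranded kit, as paired-end reads. The authors quantified them with Salmon against the GENCODE M26 transcripts on GRCm39. The Salmon version is not given in the sources used here. The deposited values were estimated counts and TPM per transcript. GENCODE M39, a later release on GRCm39, assigned 137570 of 139225 transcripts (98.8%) to genes, carrying 99.37 to 99.4% of reads, and values were summed per gene. The estimated counts were rounded and fitted across all genes with edgeR 4.0.16 in R 4.3.3 (quasi-likelihood test with legacy=TRUE, TMM, filterByExpr, Benjamini-Hochberg over 19233 genes). Calls needed adjusted p ≤ 0.05 together with a log2 change of 0.5 or more either way. Alternatives were DESeq2 1.42.0 (the authors' tool), limma-voom 3.58.1, other filters, scalings and length offsets, a replicate block and single libraries left out. DESeq2 with a replicate block was chosen after seeing the data. Ratios were compared by exact permutation over libraries. Intervals of fold changes are at 95%, and depth sets counting errors of 0.514% (*Plau*) to 17.4% (*Serpinf2*) for the 7 tested members, each in its library with fewest reads. The differential expression fit was tested on simulated counts, and the permutation test on values with a known answer. The members, lists and tests were chosen with earlier results of these data known. Genes named were all 8 members, *Pgr* as the target, from the wider list the 5 with the highest mean TPM and all with an unadjusted p of at most 0.05, and the genes with the highest Pearson r to a member. Marker genes were named beside a member or to describe the tissue.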

Additional observations from a re-analysis of the deposited data

How the results depend on the processing

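The count of called members was 0 under all 17 alternatives, and the directions of *Plau*, *Plat*, *Plgrkt*, *Serpine2* and *Serpinb2* held in all 17. With single libraries left out, the log2 fold change of *Plaur* ranged from -0.10 (without KO replicate 2) to 0.17 and that of *Serpinf2* from -0.02 (without KO replicate 3) to 0.41. The count of all genes called, 2, became 144 with DESeq2, 187 with DESeq2 and a replicate block, 26 with a replicate block in edgeR, 7 with legacy=FALSE, 36 with no filter and 6 with at least 10 counts in every library, and 1 to 4 with single libraries left out (1 without WT replicate 3 or KO replicate 2, and 4 without WT replicate 4). The cause of these changes was not tested. The count for the wider pathway ranged from 0 to 1 with single libraries left out, and was 0 without WT replicate 2 or 3 or any KO replicate. The KO minus WT difference in the log2 ratio of *Plau* to *Plat* ranged from 0.17 to 0.27 with single libraries left out. The exact permutation p was then 0.1 without any WT library and 0.0667 to 0.133 without a KO library. With a replicate block the difference was 0.27 (exact permutation p = 0.25, the smallest possible). With so few libraries, no p of at most 0.05 was possible in these settings. For each library, the deviations of log2 CPM from its group mean were taken over all tested genes, with WT replicate 1 left out. These deviations, not the levels themselves, correlated between same-numbered WT and KO libraries at -0.005, 0.14 and 0.055 (numbers 2, 3 and 4). Between libraries with unlike numbers they correlated at -0.113 to 0.053. These values cannot settle whether the numbers pair the samples, since no value for samples known to be paired was at hand. The main fit did not use the numbers. With the replicate block 0 members were called, as without it. At an unadjusted p of at most 0.05, 3 members passed with the block (*Plau*, *Plat* and *Serpine2*) and 1 without it. Among all 19233 tested genes, 2221 passed with the block and 1720 without it. Depth limits *Plg* (0 to 4 reads per library) and *Serpinf2*, whose counting error of up to 17.4% was near its coefficient of variation in WT, 18.8%.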
